A study of Mus musculus with 8 samples.

Results

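Ciita, Rfx5, Rfxap and Rfxank encode the regulators on which transcription of MHC class II genes depends, and the chromatin at their loci was examined by ATAC-seq in 4 populations of mouse medullary thymic epithelial cells (mTEC). All peaks of the merged peak table that its annotation assigns to 1 of these 4 genes were taken, which gave 14 of 74090 peaks: 6 for Ciita, 2 for Rfx5, 5 for Rfxap and 1 for Rfxank. Each peak was followed on its own, and the peaks within 10 kb of an annotated start were also summed per gene, which took in 4 peaks for Ciita, 2 for Rfx5, 3 for Rfxap and 1 for Rfxank. The 6 Ciita peaks were in addition set out by their distance to its annotated transcription starts.

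The cells came from C57BL/6 thymus, a common inbred laboratory strain, at an age that the labels do not give. Cells were released with collagenase, dispase and DNase, enriched on a Percoll gradient and sorted by flow cytometry. All gates took CD45-negative, Epcam+ cells. mTEC-II cells were sorted as MHCIIhigh, mTEC-III cells as Ly6D+, mTEC-I cells as MHCIIlow Itgb4+ and mTEC-IV cells as MHCIIlow Itgb4- L1cam+, and the labels describe each sort as enriched for its population. Each population had 2 libraries, and the labels do not say whether they are separate animals. The p-values therefore set differences against the scatter of libraries within populations, which may be technical scatter only.

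ATAC-seq inserts sequencing adapters into accessible DNA with the Tn5 transposase, so a peak of reads marks open chromatin and not transcription. MHC class II promoters carry a conserved module of S, X and Y boxes. RFX5, RFXAP and RFXANK form the RFX complex that binds the X box, CREB binds beside it, and NF-Y binds the Y box. CIITA does not bind DNA itself but docks on this assembly and recruits the factors that start transcription. RFX is made in most cell types, whereas CIITA is restricted and is transcribed from alternative promoters used by different cell types, with a promoter that responds to interferon gamma known for its use in thymic epithelium. In the thymus, epithelial MHC class II presents self-peptides to developing CD4+ T cells.

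Promoter sequences are shown with letters from these boxes in capitals, marked by different rules for the RFX genes and the CIITA target genes. Whether the arrangement of the letters differs between these genes was not tested. The sequences are from RefSeq (GRCm38.p6) and run 5′ to 3′ on the gene's strand. Entries were matched for 2 of the 4 regulators and for 8 of the 10 target genes described further on. In the first pair, each 300 bases long, the capitals mark CCAAT or its reverse complement ATTGG, the core of a Y box. These start at -113 and -54 from the annotated start in Rfx5 and at -165 and -41 in Rfxank. Rfx5 lies at chr3:94953858-94954157 on the plus strand and Rfxank at chr8:70139148-70139447 on the minus strand.
Rfx5: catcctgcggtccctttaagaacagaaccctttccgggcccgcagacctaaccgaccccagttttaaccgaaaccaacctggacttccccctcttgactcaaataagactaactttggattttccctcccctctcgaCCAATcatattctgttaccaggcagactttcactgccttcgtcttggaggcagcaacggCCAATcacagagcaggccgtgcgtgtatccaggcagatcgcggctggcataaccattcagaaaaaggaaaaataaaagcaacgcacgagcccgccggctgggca
Rfxank: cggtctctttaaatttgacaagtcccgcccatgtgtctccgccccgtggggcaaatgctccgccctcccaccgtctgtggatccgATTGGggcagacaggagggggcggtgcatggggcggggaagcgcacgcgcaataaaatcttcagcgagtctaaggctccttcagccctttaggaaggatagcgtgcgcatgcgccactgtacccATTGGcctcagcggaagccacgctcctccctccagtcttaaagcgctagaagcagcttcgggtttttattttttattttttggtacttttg
Of 32851 RefSeq promoters of this length, 37.4% hold CCAAT on either strand and 11.7% hold it at least 2 times.

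In the target genes the capitals mark GNAAC, letters from the X box, followed after 23 to 33 bases by ATTGG. This motif and spacing were chosen after these sequences had been read, and only the gene's strand was searched; 6 of the 8 matched target promoters hold it, against 1.82% of all promoters of this length. The stretches lie on chromosome 17: chr17:34287861-34287910 (minus strand) for H2-Aa, chr17:34305770-34305818 (plus) for H2-Eb1, chr17:34325537-34325585 (plus) for H2-Eb2, chr17:34092297-34092346 (plus) for H2-Oa, chr17:34238812-34238858 (plus) for H2-Ob and chr17:34153091-34153140 (plus) for H2-DMb1.
H2-Aa: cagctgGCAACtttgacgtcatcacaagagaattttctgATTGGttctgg
H2-Eb1: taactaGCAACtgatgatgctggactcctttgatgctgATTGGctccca
H2-Eb2: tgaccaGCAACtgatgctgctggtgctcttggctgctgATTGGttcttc
H2-Oa: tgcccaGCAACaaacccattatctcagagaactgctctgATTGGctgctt
H2-Ob: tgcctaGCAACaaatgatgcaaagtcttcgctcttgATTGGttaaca
H2-DMb1: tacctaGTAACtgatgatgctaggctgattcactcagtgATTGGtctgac
A match describes letters and is not evidence of binding. The peaks below are in mm9 coordinates and were not placed on these windows.

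The libraries held 3606440 to 10374600 tags. Merged peaks took 15.3% to 17.8% of the tags of mTEC-II libraries, 8.44% to 11% for mTEC-III, 19.7% for both of mTEC-I and 14.2% to 18.1% for mTEC-IV. Values below are tags per 10000000, divided by a TMM factor computed over all merged peaks, and are called scaled tags. Differences are on the scale of log2(scaled tags + 1), and are given with their standard error or a 95% interval and with p adjusted by Benjamini-Hochberg over all tested peaks or genes. A difference was called at an adjusted p under 0.05 in limma. Because the libraries are bulk sorts, fewer cells with an open site and less opening per cell cannot be told apart.

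In its sum within 10 kb and at its strongest sites, Ciita was least accessible in mTEC-IV. Its most open site, 14.7 kb upstream, was 5.11-fold higher in mTEC-II than in mTEC-IV, and the site at the downstream promoter was 7.40-fold higher. mTEC-I, sorted as MHCIIlow like mTEC-IV, had means at both sites close to those of mTEC-II. The table implies 2 annotated starts of Ciita 9.71 kb apart on chromosome 16 of mm9: 10480165 for NM_001302619 and NM_001243760, and 10489874 for NM_001243761. No merged peak lay within 3 kb of the upstream start, whereas a peak lay 93 bp upstream of the downstream start. Which of the gene's named promoters NM_001243761 represents is not given in the sources used here.

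**Figure D1:**
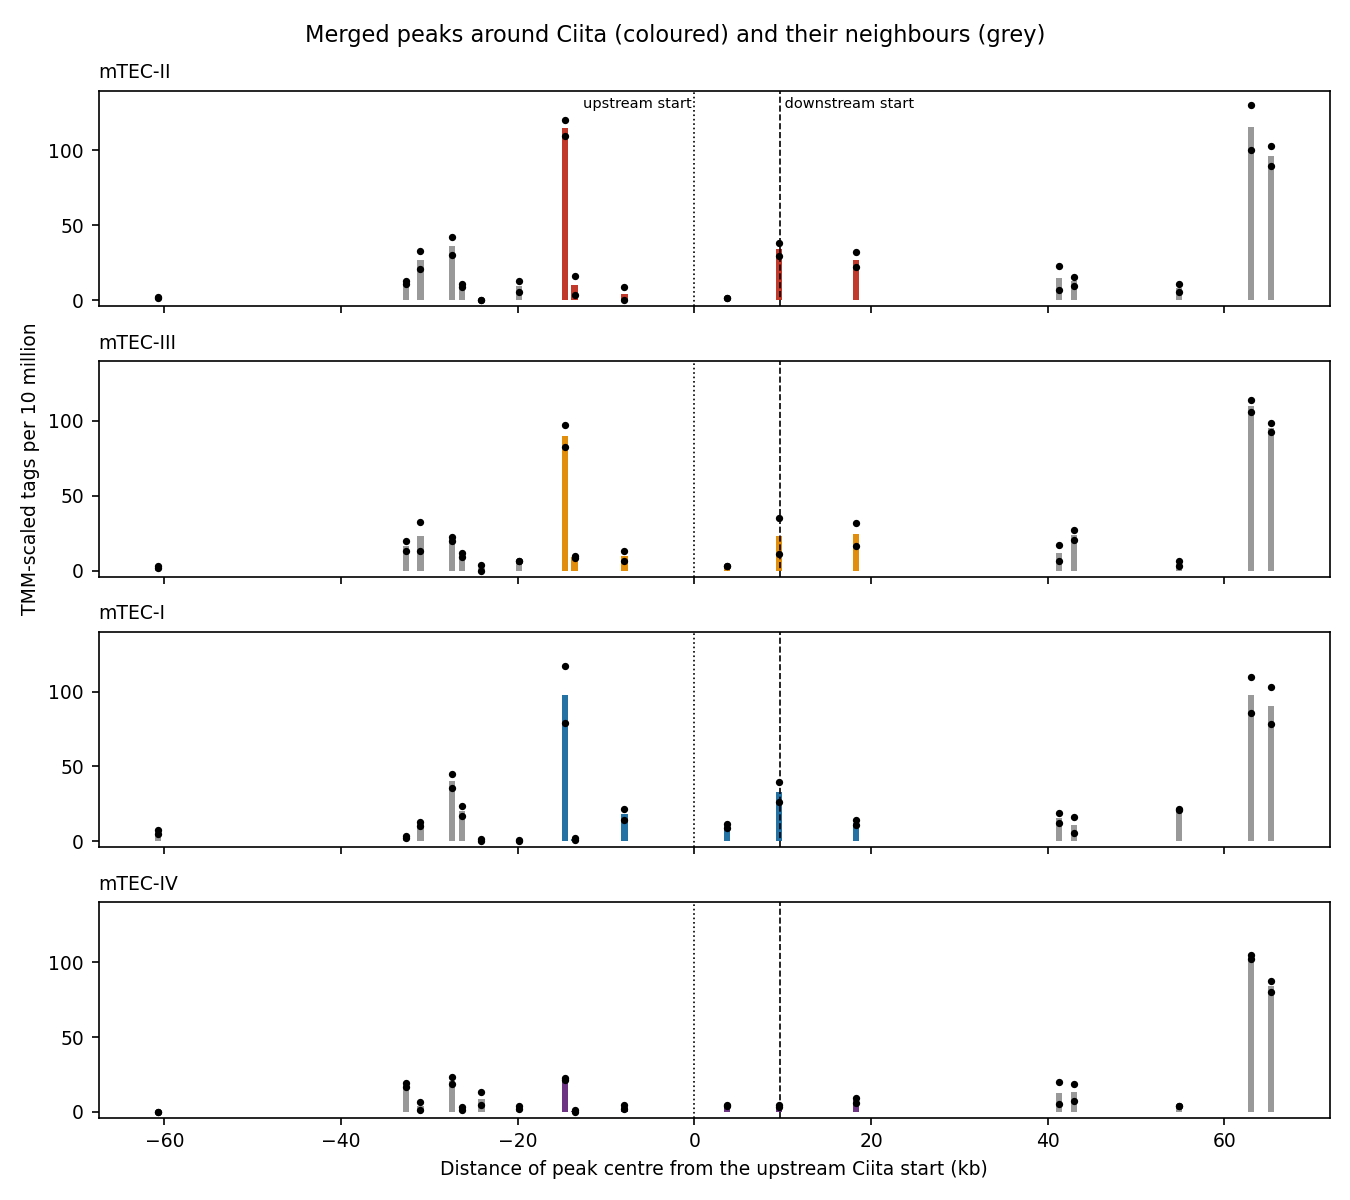
Scaled tags (vertical axis) at the 6 Ciita peaks and their neighbours by distance in kb from the upstream annotated start (horizontal axis), with 1 panel per population. Coloured bars are means of Ciita peaks, grey bars means of neighbouring peaks, points are libraries, and vertical lines mark the upstream (dotted) and downstream (dashed) starts. The tallest Ciita site lies 14.7 kb upstream and has means of 114.8, 89.9 and 98.0 scaled tags in mTEC-II, mTEC-III and mTEC-I, against 21.6 for mTEC-IV.

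The site 14.7 kb upstream (chr16:10465308-10465658, intergenic) was in the authors' peak lists of all 8 libraries. It had 109.5 and 120.0 scaled tags in mTEC-II, 82.3 and 97.5 for mTEC-III, 117.0 and 79.1 for mTEC-I, and 22.3 and 21.01 for mTEC-IV. Both mTEC-IV libraries lay below all 6 others, the mTEC-I libraries overlapped with those of mTEC-II and mTEC-III, and mTEC-II lay above mTEC-III. The difference was 2.35 ± 0.23 for mTEC-II minus mTEC-IV (adjusted p = 1.18e-05), 1.52 to 2.48 (95% interval) for mTEC-III minus mTEC-IV (adjusted p = 6.77e-05) and 2.10 ± 0.23 for mTEC-I minus mTEC-IV (adjusted p = 1.23e-05). For mTEC-II minus mTEC-I it was 0.25, with an interval of -0.23 to 0.73 (adjusted p = 0.475), and for mTEC-II minus mTEC-III it was 0.35, with an interval of -0.12 to 0.83 (adjusted p = 0.508).

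The site at the downstream promoter (chr16:10489694-10489869, promoter-TSS of NM_001243761) showed the same order. It had 38.5 and 29.6 scaled tags in mTEC-II, 35.3 and 11.3 for mTEC-III, 39.4 and 26.2 for mTEC-I, and 4.31 and 3.15 for mTEC-IV. The mTEC-IV libraries were again below all others, and the mTEC-III libraries lay far apart. The site reached 10 scaled tags in neither mTEC-IV library, so its passing of the filter and its differences from mTEC-IV are not independent. These values rest on 33 and 38 read ends in mTEC-II, 21 and 11 for mTEC-III, 90 and 49 for mTEC-I, and 6 in each mTEC-IV library. The difference was 2.89 ± 0.47 for mTEC-II minus mTEC-IV (adjusted p = 0.000433) and 2.82 ± 0.47 for mTEC-I minus mTEC-IV (adjusted p = 0.000262). For mTEC-III minus mTEC-IV it was 2.17 ± 0.47 (adjusted p = 0.00461), and without mTEC-III replicate 1 it was 1.39 (adjusted p = 0.059). For mTEC-II minus mTEC-I it was 0.07, with an interval of -0.93 to 1.07 (adjusted p = 0.942).

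A site 8.55 kb downstream of that start (chr16:10498312-10498544, in an intron) was graded differently. It had 22.1 and 31.9 scaled tags in mTEC-II, 31.9 and 16.4 for mTEC-III, 10.96 and 13.9 for mTEC-I, and 5.76 and 9.46 for mTEC-IV. mTEC-II and mTEC-III lay above mTEC-I and mTEC-IV without overlap. Here too neither mTEC-IV library reached 10 scaled tags, so the differences from mTEC-IV are not independent of the filter. The difference was 1.72 ± 0.45 for mTEC-II minus mTEC-IV (adjusted p = 0.00831) and 1.51 ± 0.45 for mTEC-III minus mTEC-IV (adjusted p = 0.0226). For mTEC-II minus mTEC-I it was 1.05 ± 0.45 (adjusted p = 0.110), and for mTEC-I minus mTEC-IV it was 0.67 ± 0.45 (adjusted p = 0.258). The mTEC-II minus mTEC-IV call was lost without mTEC-II replicate 2 or mTEC-IV replicate 1 (adjusted p = 0.087 and 0.116), and the mTEC-III minus mTEC-IV call was lost under scaling by total tags (adjusted p = 0.117).

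The remaining Ciita sites were weak. The site 13.6 kb upstream (chr16:10466534-10466674, in an LTR element) had 3.497 and 16.4 scaled tags in mTEC-II, 10.1 and 8.21 for mTEC-III, 2.19 and 1.07 for mTEC-I, and 0 and 1.05 for mTEC-IV. It reached 10 scaled tags only in mTEC-II replicate 2 and mTEC-III replicate 1, so its passing of the filter and its differences are not independent. The site 7.92 kb upstream (chr16:10472177-10472317) had 0 and 8.57 scaled tags in mTEC-II, 13.4 and 6.16 for mTEC-III, 21.5 and 14.4 for mTEC-I, and 2.16 and 4.73 for mTEC-IV. Its difference for mTEC-II minus mTEC-I was -2.59 ± 0.85 (adjusted p = 0.0422), and without mTEC-II replicate 1 it was -0.96 (adjusted p = 0.406). The site 3.70 kb downstream of the upstream start (chr16:10483766-10483971) did not pass the filter, and had 1.17 and 1.56 scaled tags in mTEC-II, 3.36 and 3.07 for mTEC-III, 11.8 and 8.54 for mTEC-I, and 4.31 and 3.67 for mTEC-IV.

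The comparison of mTEC-II with the mean of mTEC-I and mTEC-IV sets the MHCIIhigh sort against both MHCIIlow sorts, which differ from each other at the main Ciita sites. The difference was 1.30 ± 0.20 at the site 14.7 kb upstream (adjusted p = 0.000725), 1.48 ± 0.41 at the downstream promoter (adjusted p = 0.0226) and 1.38 ± 0.39 at the intronic site (adjusted p = 0.0233). The promoter call was lost when any of 4 libraries was left out, and the intronic call when any of 5 was. Over the peaks within 10 kb, Ciita had 61.8 and 71.7 scaled tags in mTEC-II, 84.0 and 36.9 for mTEC-III, 83.7 and 63.0 for mTEC-I, and 16.5 and 21.01 for mTEC-IV. For this sum the MHCIIhigh comparison gave 0.83 ± 0.27 (adjusted p = 0.0645), while mTEC-II, mTEC-III and mTEC-I exceeded mTEC-IV by 1.78 ± 0.32, 1.53 ± 0.32 and 1.91 ± 0.32 (adjusted p = 0.000776, 0.0041 and 0.000214).

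**Figure D2:**
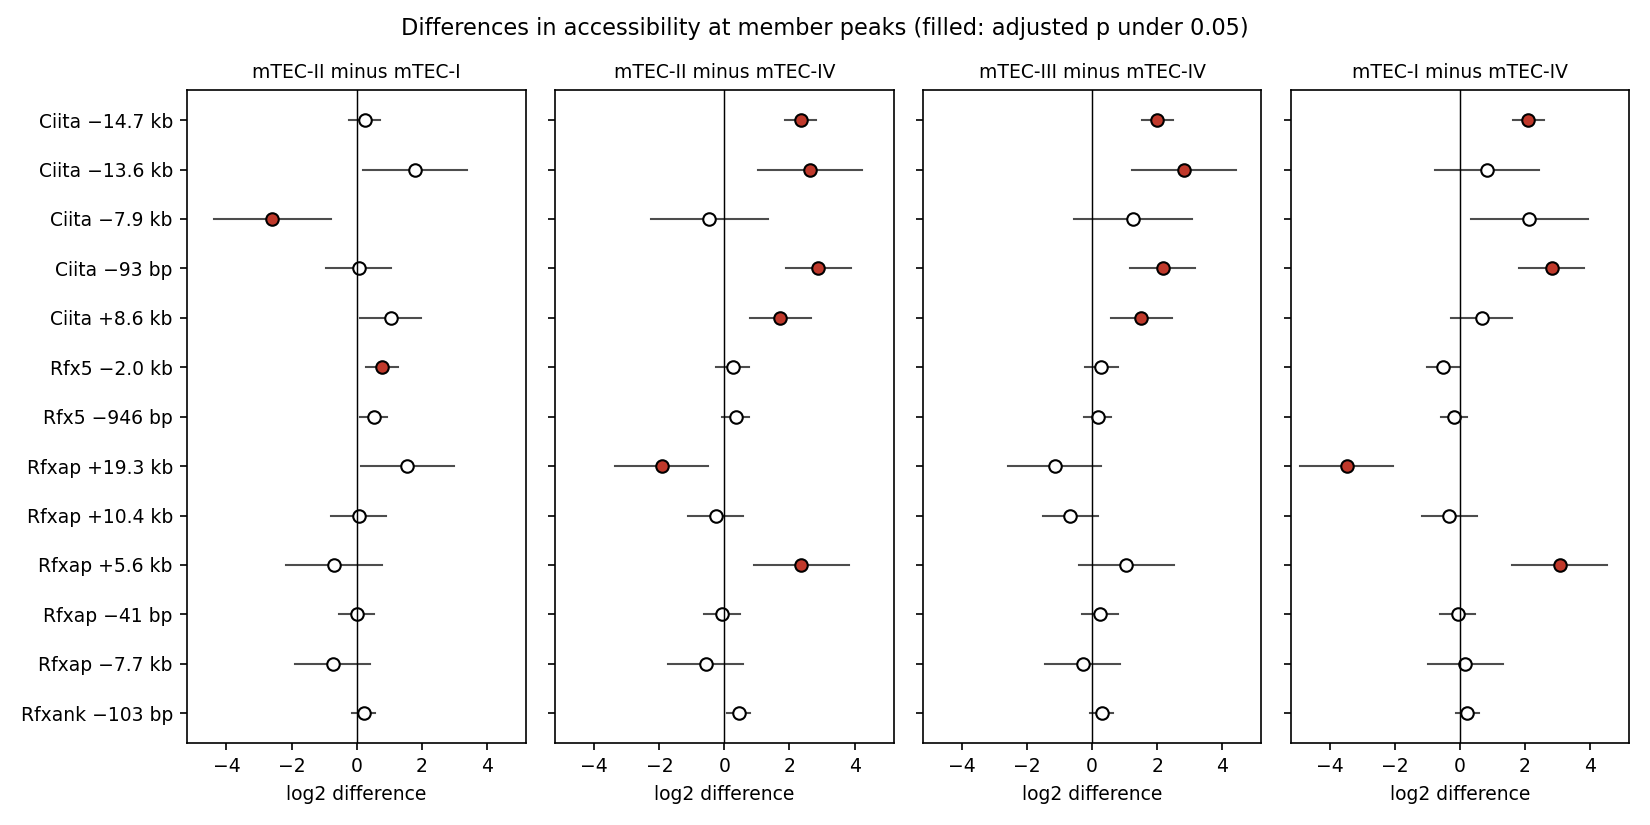
Differences on the log2 scale with 95% intervals (horizontal axis) for the 13 tested peaks of the 4 genes in 4 comparisons of populations, filled where the adjusted p is under 0.05. At the site 14.7 kb upstream of Ciita the interval for mTEC-II minus mTEC-I, -0.23 to 0.73, includes 0, while the value for mTEC-II minus mTEC-IV is 2.35.

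Whether the populations divided Ciita's signal differently among its sites was asked from the share of each site in the total of the 5 sites that passed the filter. The site 14.7 kb upstream held a mean of 60.6% in mTEC-II, 58.7% for mTEC-III, 60.0% for mTEC-I and 59.0% for mTEC-IV. The promoter site held 18.2% in mTEC-II, 14.2% for mTEC-III, 20.04% for mTEC-I and 10.2% for mTEC-IV, and the intronic site 14.1%, 15.1%, 8.03% and 20.3% in the same order. No share differed among the populations in an exact permutation test over 105 assignments of libraries, with adjusted p over the 5 shares of 0.19 to 1. The smallest p this test can give is 0.00952. With a pseudocount of 5, 3 shares passed at an adjusted p of 0.032: those of the sites 13.6 kb and 7.92 kb upstream and of the intronic site.

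**Figure D3:**
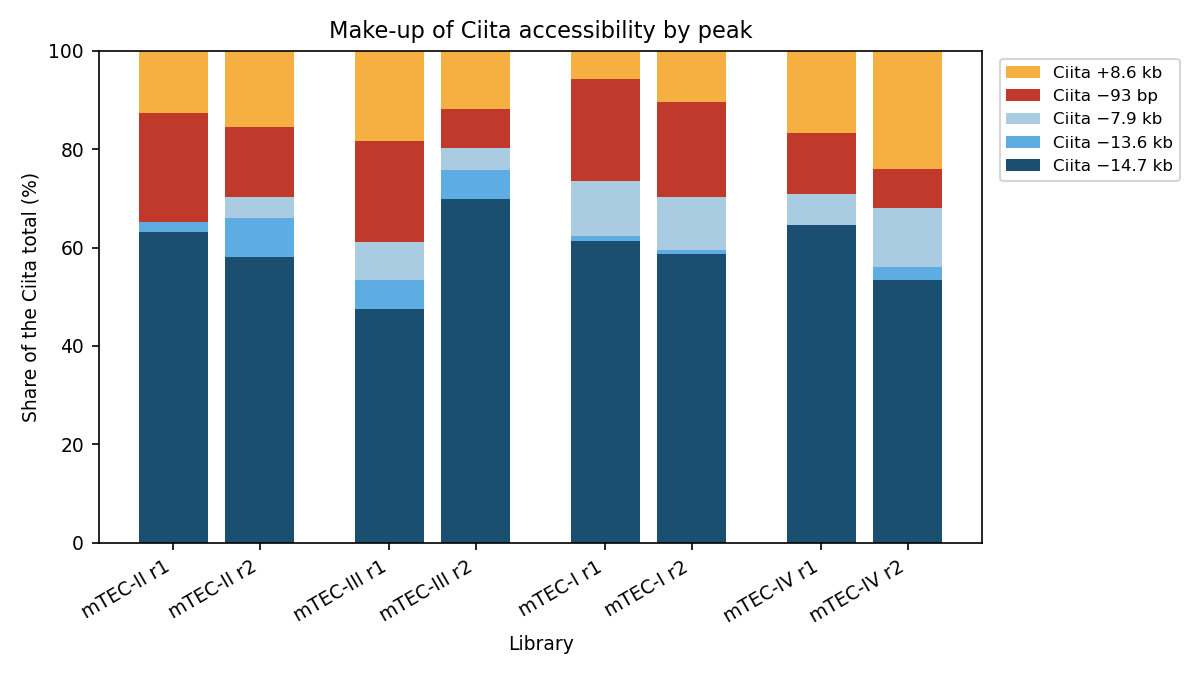
Share in percent of each tested Ciita site in the summed signal of the 5 sites (vertical axis), as 1 stacked bar per library, ordered by population. The site 14.7 kb upstream has a mean share of 60.6%, 58.7%, 60.0% and 59.0% in mTEC-II, mTEC-III, mTEC-I and mTEC-IV.

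Within 50 kb of the Ciita peaks lay 12 peaks of other genes, of which 9 were tested. Of these, 5 were called among the 4 populations, beside a share of 49.2% over all tested peaks. They did not share 1 pattern. The promoter peak of Tvp23a averaged 11.5 scaled tags in mTEC-II, 16.7 for mTEC-III, 2.70 for mTEC-I and 18.0 for mTEC-IV, and was lower in mTEC-I than in mTEC-IV, at -2.37 ± 0.50 (adjusted p = 0.00129). A peak 1.71 kb upstream of Tvp23a averaged 26.8 scaled tags in mTEC-II, 23.1 for mTEC-III, 11.4 for mTEC-I and 4.13 for mTEC-IV, with mTEC-II minus mTEC-IV at 2.64 ± 0.58 (adjusted p = 0.0029). The promoter peaks of Dexi and Clec16a, both downstream of Ciita, were not called, at means of 97.8 to 115.5 and of 84.0 to 96.3 scaled tags (adjusted p = 0.704 and 0.788 for any difference).

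At their promoter peaks and in their sums within 10 kb, the 3 RFX genes varied over a narrower range than Ciita. Rfx5, which encodes the subunit with the RFX DNA-binding domain, had 2 upstream peaks on chromosome 3. The promoter peak (chr3:94757881-94758101) had 150.3 and 146.5 scaled tags in mTEC-II, 154.5 and 111.8 for mTEC-III, 114.8 and 91.9 for mTEC-I, and 125.1 and 108.7 for mTEC-IV. The populations overlapped except mTEC-II, which lay above mTEC-I and mTEC-IV, and no difference was called (adjusted p = 0.131 for any population). The second peak, 2.01 kb upstream (chr3:94756838-94757016), had 59.4 and 57.6 scaled tags in mTEC-II, 65.5 and 54.4 for mTEC-III, 34.6 and 32.6 for mTEC-I, and 55.4 and 43.1 for mTEC-IV. Both mTEC-I libraries were below all others. The difference was 0.78 ± 0.24 for mTEC-II minus mTEC-I (adjusted p = 0.0291) and 0.81 ± 0.24 for mTEC-III minus mTEC-I (adjusted p = 0.0224). The mTEC-II minus mTEC-I call was lost with DESeq2 (adjusted p = 0.108), by total tags (adjusted p = 0.269) and when any of 4 libraries was left out, and by total tags the mTEC-III minus mTEC-I difference was -0.18.

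Summed, Rfx5 had 209.8 and 204.1 scaled tags in mTEC-II, 220.0 and 166.2 for mTEC-III, 149.4 and 124.5 for mTEC-I, and 180.5 and 151.8 for mTEC-IV. It was higher in mTEC-II than in mTEC-I by 0.60 ± 0.16 (adjusted p = 0.0195) and than the mean of mTEC-I and mTEC-IV by 0.46 ± 0.14 (adjusted p = 0.0462). The last of these calls was lost when any of 6 libraries was left out (adjusted p = 0.0598 to 0.193; it was kept without either mTEC-III library). By total tags it was 0.38 (adjusted p = 0.510), and the mTEC-III minus mTEC-I difference of the sum, 0.48 (adjusted p = 0.0474), became -0.53.

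Rfxap, which encodes the RFX-associated subunit, had its main peak at the promoter (chr3:54611617-54611892). It had 97.9 and 49.1 scaled tags in mTEC-II, 87.3 and 86.2 for mTEC-III, 73.6 and 65.7 for mTEC-I, and 76.2 and 70.4 for mTEC-IV. The mTEC-II libraries spanned the values of all others, and mTEC-II minus mTEC-IV was -0.08, with an interval of -0.62 to 0.47. A peak 10.4 kb downstream (chr3:54601237-54601399) lay in an exon of NM_019483, which RefSeq gives to Smad9, and ranged over the 8 libraries from 10.1 to 24.2 scaled tags (adjusted p = 0.514). The peak 19.3 kb downstream (chr3:54592363-54592481), in an intron of the same transcript, had 2.33 and 3.89 scaled tags in mTEC-II, 6.72 and 5.12 for mTEC-III, 0.88 and 0 for mTEC-I, and 10.8 and 18.9 for mTEC-IV. The peak 5.60 kb downstream (chr3:54606023-54606208) reached 10 only in mTEC-I, with 11.8 and 10.2 scaled tags, against 0 and 1.05 for mTEC-IV. The peak 7.70 kb upstream (chr3:54619338-54619496) ranged from 6.16 to 16.5 scaled tags (adjusted p = 0.622). The peaks 19.3 and 5.60 kb downstream passed the filter through mTEC-IV and mTEC-I alone, so their calls for mTEC-I minus mTEC-IV, -3.48 ± 0.67 (adjusted p = 0.000662) and 3.06 ± 0.69 (adjusted p = 0.00199), are not independent of the filter.

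Rfxank encodes the ankyrin-repeat subunit, and mutations of its human counterpart are a known cause of MHC class II deficiency. Its single peak (chr8:72663065-72663333, promoter-TSS) had 164.3 and 159.7 scaled tags in mTEC-II, 152.8 and 138.5 for mTEC-III, 143.7 and 135.1 for mTEC-I, and 109.3 and 128.7 for mTEC-IV. Values were highest in mTEC-II and lowest in mTEC-IV, but the difference of 0.45, with an interval of 0.09 to 0.80, was not called (adjusted p = 0.0573).

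**Figure D4:**
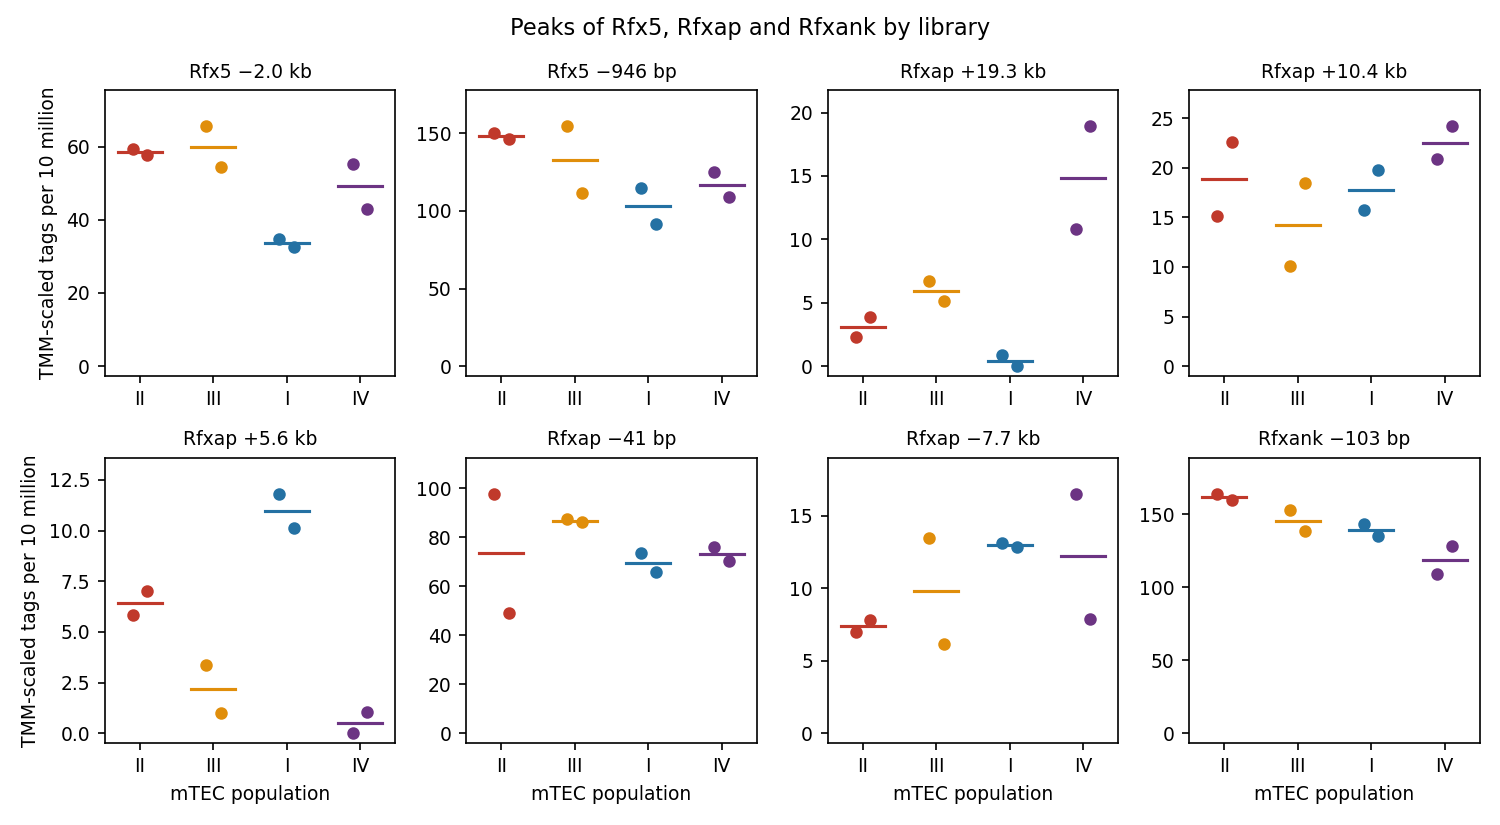
Scaled tags (vertical axis) at the Rfx5, Rfxap and Rfxank peaks with 1 point per library and a line at the mean of each population. At the Rfxank promoter the libraries range from 109.3 to 164.3 scaled tags, and both mTEC-I libraries are the lowest at the Rfx5 peak 2.01 kb upstream.

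Among the 4 populations, 7 of the 13 member peaks that passed the filter were called, of which 4 were Ciita's, and the share over all tested peaks was 49.2%. These counts include sites that passed the filter only through populations where they are high: the Ciita site 13.6 kb upstream and the Rfxap sites 19.3 and 5.60 kb downstream, which are all among the 7, and the Ciita site 7.92 kb upstream. The Ciita promoter and intronic sites, also among the 7, passed it without either mTEC-IV library, where they are lowest. The counts that follow hold such sites too and are a description, from which nothing is read against the shares over all peaks. For mTEC-II minus the mean of mTEC-I and mTEC-IV, 4 peaks were called, all Ciita's and all higher, the site 13.6 kb upstream among them (15.7% of all peaks). Between mTEC-II and mTEC-III none was called by limma (0.0562% of all peaks), edgeR or DESeq2, and the lowest unadjusted p was 0.0603. For mTEC-II minus mTEC-I, 2 were called, the Rfx5 peak 2.01 kb upstream and the Ciita site 7.92 kb upstream (19.4% of peaks). For mTEC-II minus mTEC-IV 6 were called, including the Ciita site 13.6 kb upstream and the Rfxap sites 19.3 and 5.60 kb downstream (27.7% of peaks). For mTEC-III minus mTEC-I 3 were called (22.9% of peaks), for mTEC-III minus mTEC-IV 4, all Ciita's and higher (23.3%), and for mTEC-I minus mTEC-IV 4 (41.4%). Without mTEC-IV replicate 1, only the Ciita sites 14.7 kb upstream and at the promoter were called among the 4 populations.

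By gene sum, Ciita and Rfx5 were called among the 4 populations, against 29.7% of all genes. When libraries were left out 1 at a time, the call of Ciita was kept each time and that of Rfx5 only without either mTEC-III library. For mTEC-II minus the mean of mTEC-I and mTEC-IV, 1 gene was called, Rfx5 (8.87% of genes), and between mTEC-II and mTEC-III none by limma (0.00665%), edgeR or DESeq2, with a lowest unadjusted p of 0.319. By total tags, under which the median of all genes was 0.80 in that comparison, the sums of Ciita, Rfx5 and Rfxank were called. For mTEC-II minus mTEC-I and mTEC-III minus mTEC-I, Rfx5 alone was called (12.8% and 15.9% of genes). Ciita alone was called for mTEC-II, mTEC-III and mTEC-I minus mTEC-IV (12.8%, 11.3% and 22.4% of genes).

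The MHC class II genes that CIITA and RFX act on were counted as 10 genes, all tested. Because mTEC-II was gated as MHCIIhigh and both mTEC-I and mTEC-IV as MHCIIlow, differences of mTEC-II from these cannot be told apart from the gates. mTEC-I and mTEC-IV were separated from each other by Itgb4 and L1cam. For mTEC-II minus mTEC-IV, 7 of 10 were called higher, beside 788 of all 15033 genes, with a median of 0.77 against -0.09 over all genes. For mTEC-I minus mTEC-IV 4 were called higher, beside 1294 of all genes, with a median of 0.45 against -0.17. For mTEC-II minus mTEC-I, 4 were called higher, beside 1127 of all genes, with a median of 0.42 against 0.07. By total tags, 5 were called higher for mTEC-II minus mTEC-IV and 1 for mTEC-II minus mTEC-I, beside 678 and 430 of 15085 genes.

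H2-Ab1, the beta chain of the classical I-A molecule, had 318.1 and 282.0 scaled tags in mTEC-II, 332.5 and 270.9 for mTEC-III, 235.3 and 214.2 for mTEC-I, and 140.2 and 132.3 for mTEC-IV. Its populations mTEC-I and mTEC-IV did not overlap with each other or with the rest. H2-Aa, the alpha chain, was higher in mTEC-II than in mTEC-IV by 0.96 ± 0.14, and Cd74, the invariant chain that guards the peptide groove, by 0.73 ± 0.16. H2-Eb2, whose promoter stretch is shown above, differed in pattern: it had 97.9 and 96.6 scaled tags in mTEC-II, 109.1 and 100.5 for mTEC-III, 42.9 and 34.7 for mTEC-I, and 52.5 and 33.1 for mTEC-IV. It was higher in mTEC-II than in mTEC-I by 1.31 ± 0.24 (limma adjusted p = 0.0013), with mTEC-I minus mTEC-IV at -0.11. H2-Eb1 shared this pattern: it was higher in mTEC-II than in mTEC-I by 0.64 ± 0.12 (limma adjusted p = 0.0020), with mTEC-I minus mTEC-IV at 0.05. By total tags, H2-Eb1 gave 0.38 (limma adjusted p = 0.523) and 0.42 in these comparisons. H2-Eb2 gave 1.05 (limma adjusted p = 0.0255) and 0.25.

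**Figure D5:**
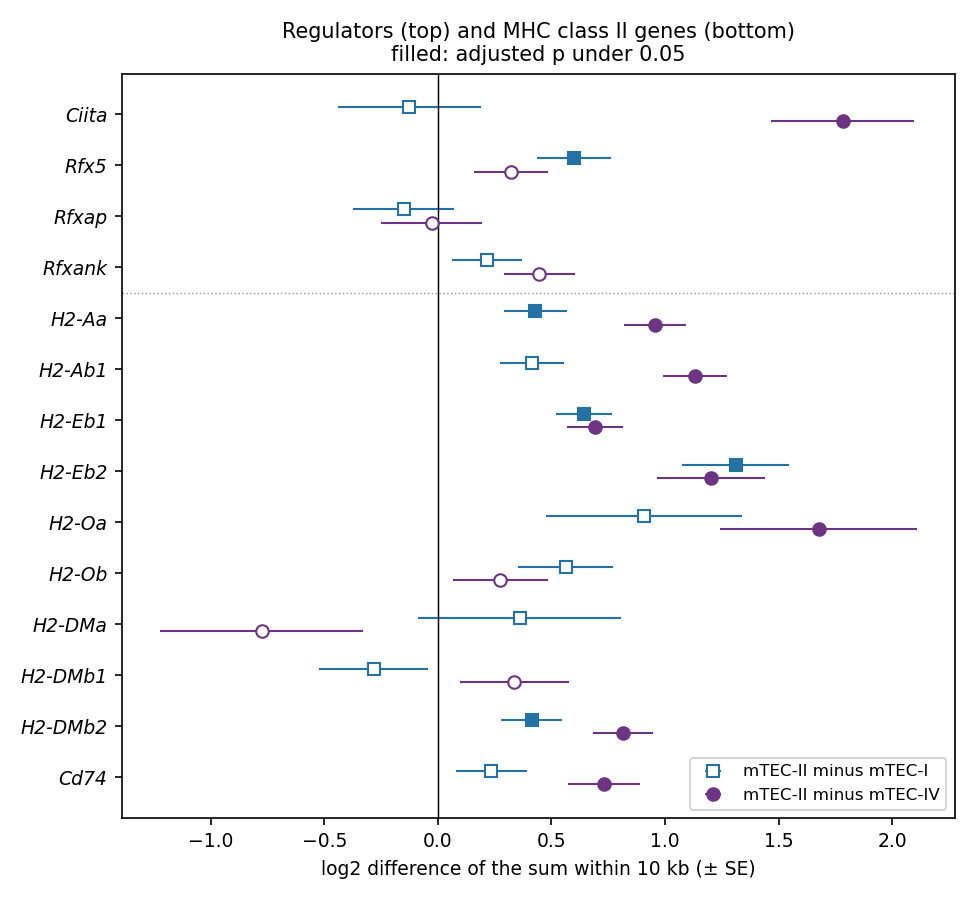
Log2 differences of the sums within 10 kb (horizontal axis, with standard errors) for the 4 regulators and 10 MHC class II genes, as squares for mTEC-II minus mTEC-I and circles for mTEC-II minus mTEC-IV, filled where the adjusted p is under 0.05. Ciita lies at -0.12 in the comparison with mTEC-I and at 1.78 in that with mTEC-IV, while H2-Eb2 lies at 1.31 and 1.20.

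Among the partners of RFX at the S-X-Y module, 2 of 4 genes were called among the populations, and these counts stand beside 29.7% of all genes. Nfya, the regulatory subunit of NF-Y, was lower in mTEC-II than in mTEC-IV, at -1.30 ± 0.28 (limma adjusted p = 0.0036). Of the 6 tested members of the wider RFX family, Rfx8 was called, with 37.3 and 53.0 scaled tags in mTEC-II, 15.1 and 21.5 for mTEC-III, 33.7 and 42.7 for mTEC-I, and 5.0 and 12.6 for mTEC-IV. Among 13 genes of the signalling inputs to Ciita, 4 were called, a share near that over all genes. Irf4 and Irf8, interferon regulatory factors, were higher in mTEC-II than in mTEC-IV by 1.06 ± 0.28 and 0.86 ± 0.22, and Ifngr2, a chain of the interferon gamma receptor, was lower at -0.67 ± 0.20. Ifngr1, the other chain, gave 0.49 ± 0.18 in that comparison and was not called (limma adjusted p = 0.084). Irf1, which acts downstream of that receptor, gave 0.11 there and was not called. For mTEC-I minus mTEC-IV, Ifngr1 was called higher at 0.59 ± 0.18. Ifngr2 and Irf2 were called lower in it, at -0.80 ± 0.20 and -0.80 ± 0.21. Of 6 tested cofactors, Crebbp, a histone acetyltransferase, was lower in mTEC-I than in mTEC-IV at -0.63 ± 0.17.

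Markers of other cells moved with the populations. The summed B cell markers, of which Cd79a and Cd79b alone of 5 had a peak, were 7.0 and 7.8 scaled tags in mTEC-II, 10.1 and 19.5 for mTEC-III, 13.1 and 3.7 for mTEC-I, and 56.1 and 56.7 for mTEC-IV. Thymocyte markers summed to 3.5 and 6.2 in mTEC-II, 10.1 and 7.2 for mTEC-III, 0.88 and 0.53 for mTEC-I, and 53.9 and 42.0 for mTEC-IV, with no peak at Cd3e or Cd8a and Rag1 at 0. Dendritic and myeloid markers, 5 of 8 with a peak, summed to 208.6 and 223.6 in mTEC-II, 156.1 and 172.4 for mTEC-III, 124.5 and 147.4 for mTEC-I, and 153.1 and 162.3 for mTEC-IV. Itgax, Csf1r, Siglech, Ms4a1, Pax5 and Ptprc had no merged peak within 10 kb. Tuft cell markers summed to 78.1 and 85.7 in mTEC-II, 110.8 and 111.8 for mTEC-III, 145.1 and 148.0 for mTEC-I, and 279.0 and 272.6 for mTEC-IV. The 4 tuft markers did not move alike. Dclk1 alone was called higher in mTEC-I than in mTEC-II and mTEC-III, while their median for mTEC-III minus mTEC-I was 0.37. Avil, Pou2f3 and Trpm5, but not Dclk1, were called lower in mTEC-I than in mTEC-IV. The part of these markers in the Ciita differences was not tested. Epcam, used in the sort, summed to 124 to 165 scaled tags within 10 kb over the 8 libraries and was not called among the populations. The other thymic epithelial markers chosen, Aire, Foxn1, Krt5 and Krt8, were called, beside 29.7% of all genes. For mTEC-II minus mTEC-I, Aire and Krt5 were called, 1 higher and 1 lower.

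As a description over 8 libraries of shared depth and scaling, the gene sums closest to Ciita among 10437 genes were Rab42 (Pearson r = 0.985), Dmrt2 (0.974), Tspear (0.967), Wnt6 (0.956) and AI847159 (0.955). For Rfx5 the closest was Zc3h3 (0.975), for Rfxap Stim2 (0.950) and for Rfxank Trim27 (0.985). Between members, Ciita gave 0.83 with Rfxank, 0.17 with Rfx5 and 0.14 with Rfxap. With the target genes Ciita ranged from -0.84 (H2-DMa) to 0.84 (H2-Ab1).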

How the data were processed

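ATAC-seq was measured in 8 libraries of 4 sorted populations. The submitters' processing notes name bcl2fastq 2.15.0.4, Picard 1.108, HOMER and mm9, without their roles. An aligner, duplicate handling or Tn5 shift is not given in the sources used. HOMER findPeaks called peaks, per the file headers, in each library (factor style, fragment length 300, FDR 0.001, 4-fold over the local 10000 bp), and the merged table gives a signal per peak, deposited as tags per 10000000. The deposited lists also give a score and a fold over local background, which are the authors' and only describe peaks within a list. All values (100%, tolerance 0.0051) were whole read ends, each worth 0.5 tag, so read ends were recovered.

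Signals were divided by TMM factors, kept at 10 or more in at least 2 libraries, and tested as log2(value + 1) with limma 3.58.1 in R 4.3.3, over 58745 peaks and 15033 genes, all populations sharing 1 estimate of the spread. Checks on simulated data preceded this. Alternatives were edgeR 4.0.16 and DESeq2 1.42.0 on read ends, other scalings, pseudocounts, filters and distances, and leaving out each library. Differences between replicates 1 and 2 over the tested peaks were nearly uncorrelated between populations (-0.0135 to 0.0324), and the main test used no pairing. These correlations cannot show whether libraries of the same number were prepared together. Named genes are the members, neighbouring peaks, called genes of the lists, and up to 5 most alike genes per member; Irf1 and the markers were named besides, and some genes are not reported here. The members and lists were chosen with earlier results of these data known.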

Additional observations from a re-analysis of the deposited data

How the results depend on the processing

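For mTEC-II minus the mean of mTEC-I and mTEC-IV, leaving out each library gave 0.72 to 0.93 for the Ciita sum, 0.39 to 0.52 for Rfx5, -0.48 to 0.30 for Rfxap (0.30 without mTEC-II replicate 2), 0.27 to 0.39 for Rfxank, 1.16 to 1.44 for the Ciita site 14.7 kb upstream and 1.30 to 1.66 for its promoter site. The Ciita sum was called with promoter-peak scaling (0.88, adjusted p = 0.0489), edgeR (0.84), DESeq2 (0.85) and peaks at any distance (1.18), and without mTEC-III replicate 1 or 2 (adjusted p = 0.0170 and 0.0123). The Rfx5 sum was not called by total tags (0.38), a pseudocount of 0.5 (0.46) or peaks within 1 kb (0.44), nor without any 1 library of mTEC-II, mTEC-I or mTEC-IV (adjusted p = 0.0598 to 0.193). Rfx5 reversed by total tags for mTEC-III minus mTEC-I, at -0.18 for the peak 2.01 kb upstream and -0.53 for the sum. Leaving out each library gave 2 to 8 called member peaks and 1 to 2 member genes among the 4 populations; total tags gave 4 genes and peaks within 1 kb 1. Over everything tested, leaving out each library gave 16402 to 31814 called peaks and 2301 to 6088 called genes among the 4 populations, against 28913 and 4464, and 3229 to 11643 peaks and 563 to 1954 genes for the MHCIIhigh comparison, against 9207 and 1333. A pseudocount of 5 gave 13915 peaks there. Total tags, peaks within 1 kb and peaks at any distance gave 11377, 1656 and 8321 genes among the populations, and 816, 328 and 3221 for the MHCIIhigh comparison. The cause of these changes was not tested. Under total-tag scaling the median of all genes was 0.80 for mTEC-II minus mTEC-III and -0.99 for mTEC-III minus mTEC-I.

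With the replicate block, 8 member peaks and 2 member genes were called, and the Ciita and Rfx5 sums gave 0.83 and 0.46. The Ciita site 7.92 kb upstream was gained, and the Rfxap sites 19.3 and 5.60 kb downstream lost 1 comparison each. Whether libraries of the same number belong together is not settled by the low correlations given above.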
